A study of Mus musculus with 2 samples.

Results

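The 7 genes described here, Slamf1, Slamf6, Slamf7, Cd48, Cd84, Cd244a and Ly9, encode receptors of the signalling lymphocytic activation molecule (SLAM) family and were taken by symbol from the 32285 genes of the deposited gene list. Their transcripts were summed in each leukocyte class of 2 single-cell libraries of mouse retinal pigment epithelium (RPE) and choroid, the vascular layer behind the retina. Mice of the Tsc1 flox group carried the conditional allele Tsc1tm1Djk/J without Cre. Those of the Tsc1 RPE KO group carried the same allele and Best-Cre, which the labels call RPE-specific, so that leukocytes are outside the cell type the labels name as targeted. A male and a female of 10 weeks were combined for each library. Eye cups freed of the neuroretina were dissociated enzymatically, and sorting kept live cells.

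The group was chosen by values measured in these libraries: Slamf7 was selected on its higher level in 3 leukocyte classes of the Tsc1 RPE KO library, and its chromosomal neighbours of the same family were added. All differences between the libraries given below are therefore descriptions. With 1 library for each genotype there was no replicate, no test between genotypes was made, and genotype, animals and preparation cannot be told apart.

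SLAM receptors are immunoglobulin-type proteins on the surface of blood cells that let one leukocyte sense another. Most members bind their own kind on the facing cell, whereas Cd48, a lipid-anchored protein, serves as the ligand of the receptor Cd244a and also binds Cd2. Inside the cell the receptors recruit small adaptors of the SAP family, which couple them to kinases such as Fyn, or phosphatases when the adaptor is lacking, and in this way tune the activity of natural killer (NK), T and B cells. The receptor encoded by Slamf7 is known from NK cells, activated B cells, plasma cells and macrophages.

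The members lie side by side on chromosome 1 in a stretch of 394 kb, in the order Cd244a, Ly9, Slamf7, Cd48, Slamf1, Cd84 and Slamf6 (mm10, GENCODE M21). Slamf7 (ENSMUSG00000038179) lies on the minus strand at chr1:171632403-171653035. Cd48 (ENSMUSG00000015355) lies on the plus strand at chr1:171682009-171705258, and its start is 29.0 kb from that of Slamf7 in the opposite orientation. Cd244a (ENSMUSG00000004709, plus strand, chr1:171559193-171609746) and Ly9 (ENSMUSG00000004707, minus strand, chr1:171588624-171607410) overlap on opposite strands. Slamf1 (ENSMUSG00000015316) starts at 171767127, Cd84 (ENSMUSG00000038147) at 171839697 and Slamf6 (ENSMUSG00000015314) at 171917515, all on the plus strand.

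Promoter windows of 300 bases, from 250 bases before to 50 bases after the start, were found for 6 of the 7 members in RefSeq (GRCm38.p6). Those of Slamf7 and Cd48 are shown because both members stood higher in T cell-like cells of the Tsc1 RPE KO library, and that of Cd244a because it stood lower in nonclassical monocyte-like cells. Capitals mark matches on either strand to TGANTCA, the AP-1 motif, or to TGTGGT, the Runx motif. The window of Slamf7 is chr1:171648950-171649249 on the minus strand, and its RefSeq start lies 4.04 kb inside the GENCODE gene. That of Cd48 is chr1:171681742-171682041 and that of Cd244a is chr1:171558943-171559242, both on the plus strand.
Slamf7: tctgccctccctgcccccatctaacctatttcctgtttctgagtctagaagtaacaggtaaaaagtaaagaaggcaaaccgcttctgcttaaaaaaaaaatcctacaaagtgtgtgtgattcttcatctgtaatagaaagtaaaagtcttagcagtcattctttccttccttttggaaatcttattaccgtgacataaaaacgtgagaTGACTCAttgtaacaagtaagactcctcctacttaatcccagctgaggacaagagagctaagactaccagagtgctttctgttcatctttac
Cd48: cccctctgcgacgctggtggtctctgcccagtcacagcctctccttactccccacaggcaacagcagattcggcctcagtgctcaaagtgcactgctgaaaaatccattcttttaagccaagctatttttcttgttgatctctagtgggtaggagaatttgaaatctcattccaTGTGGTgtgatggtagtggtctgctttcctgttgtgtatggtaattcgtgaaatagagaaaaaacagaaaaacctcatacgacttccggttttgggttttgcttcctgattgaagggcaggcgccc
Cd244a: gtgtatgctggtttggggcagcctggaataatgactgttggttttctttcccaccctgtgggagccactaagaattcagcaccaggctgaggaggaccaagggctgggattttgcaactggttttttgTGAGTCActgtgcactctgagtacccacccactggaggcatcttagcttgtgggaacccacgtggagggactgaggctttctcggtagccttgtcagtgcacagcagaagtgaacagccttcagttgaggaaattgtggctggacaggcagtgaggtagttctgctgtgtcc
The window of Slamf7 held 1 AP-1 match, which began 42 bases before the start, and that of Cd244a held 1 that began 122 bases before it. The window of Cd48 held 1 Runx match, 76 bases before the start, so that no matches overlapped in the windows shown. AP-1 matches occurred in 3 of the 6 members' windows and in 7.81% of the 32851 RefSeq windows of that length, and Runx matches in 2 of 6 and in 16.8%. A match is a match of letters and was not tested as a binding site.

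Called cells numbered 1524 in the Tsc1 flox library and 1853 in the Tsc1 RPE KO library, with medians of 4525 and 4617 unique molecular identifiers (UMIs, 1 for each captured RNA molecule) per cell. The barcode lists shared 182035 entries, but only 2 barcodes were called as cells in both libraries. Tsc1 had 0 UMIs in the 12 and 46 RPE-like cells of the libraries, so its loss could not be checked, and it had 129 and 133 UMIs in leukocytes. Classes were rebuilt from clusters with marker genes, hence the ending "-like". The B cell-like class held 412 and 320 cells (flox, then knockout), the T cell-like class 340 and 374, and the NK cell-like class 170 and 121. The nonclassical monocyte-like class held 88 and 439 cells. The classical monocyte or macrophage-like class, called monocyte/macrophage-like below, held 104 and 116. Plasmacytoid dendritic cell-like cells numbered 17 and 16, and mast cell-like cells 13 and 12.

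The SLAM transcripts were found almost wholly in leukocytes. Of each member's UMIs in cells, between 91.2% (Slamf1, knockout) and 100% (Cd244a, flox) lay in leukocyte classes. Among 266 flox and 178 knockout fibroblast-like cells, which should lack these genes, no member had a UMI in more than 1.13% of the cells, and Slamf7 had 1 UMI in all. The 42 flox rod-like cells had 0 UMIs of every member. Here and below, the limit allowed by a count of 0 is 3 of the number of cells, in this case 7.14%, and it bounds cells with a detected UMI, not cells that express the gene. The 176 knockout rod-like cells were at or below 1.14% for every member apart from Slamf1, with 7 UMIs in 7 cells (3.98%). Median depths were 4035 and 4069 (fibroblast-like) and 2074.5 and 2798 UMIs (rod-like), against 3868 to 9858 in the 5 main leukocyte classes.

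**Figure D1:**
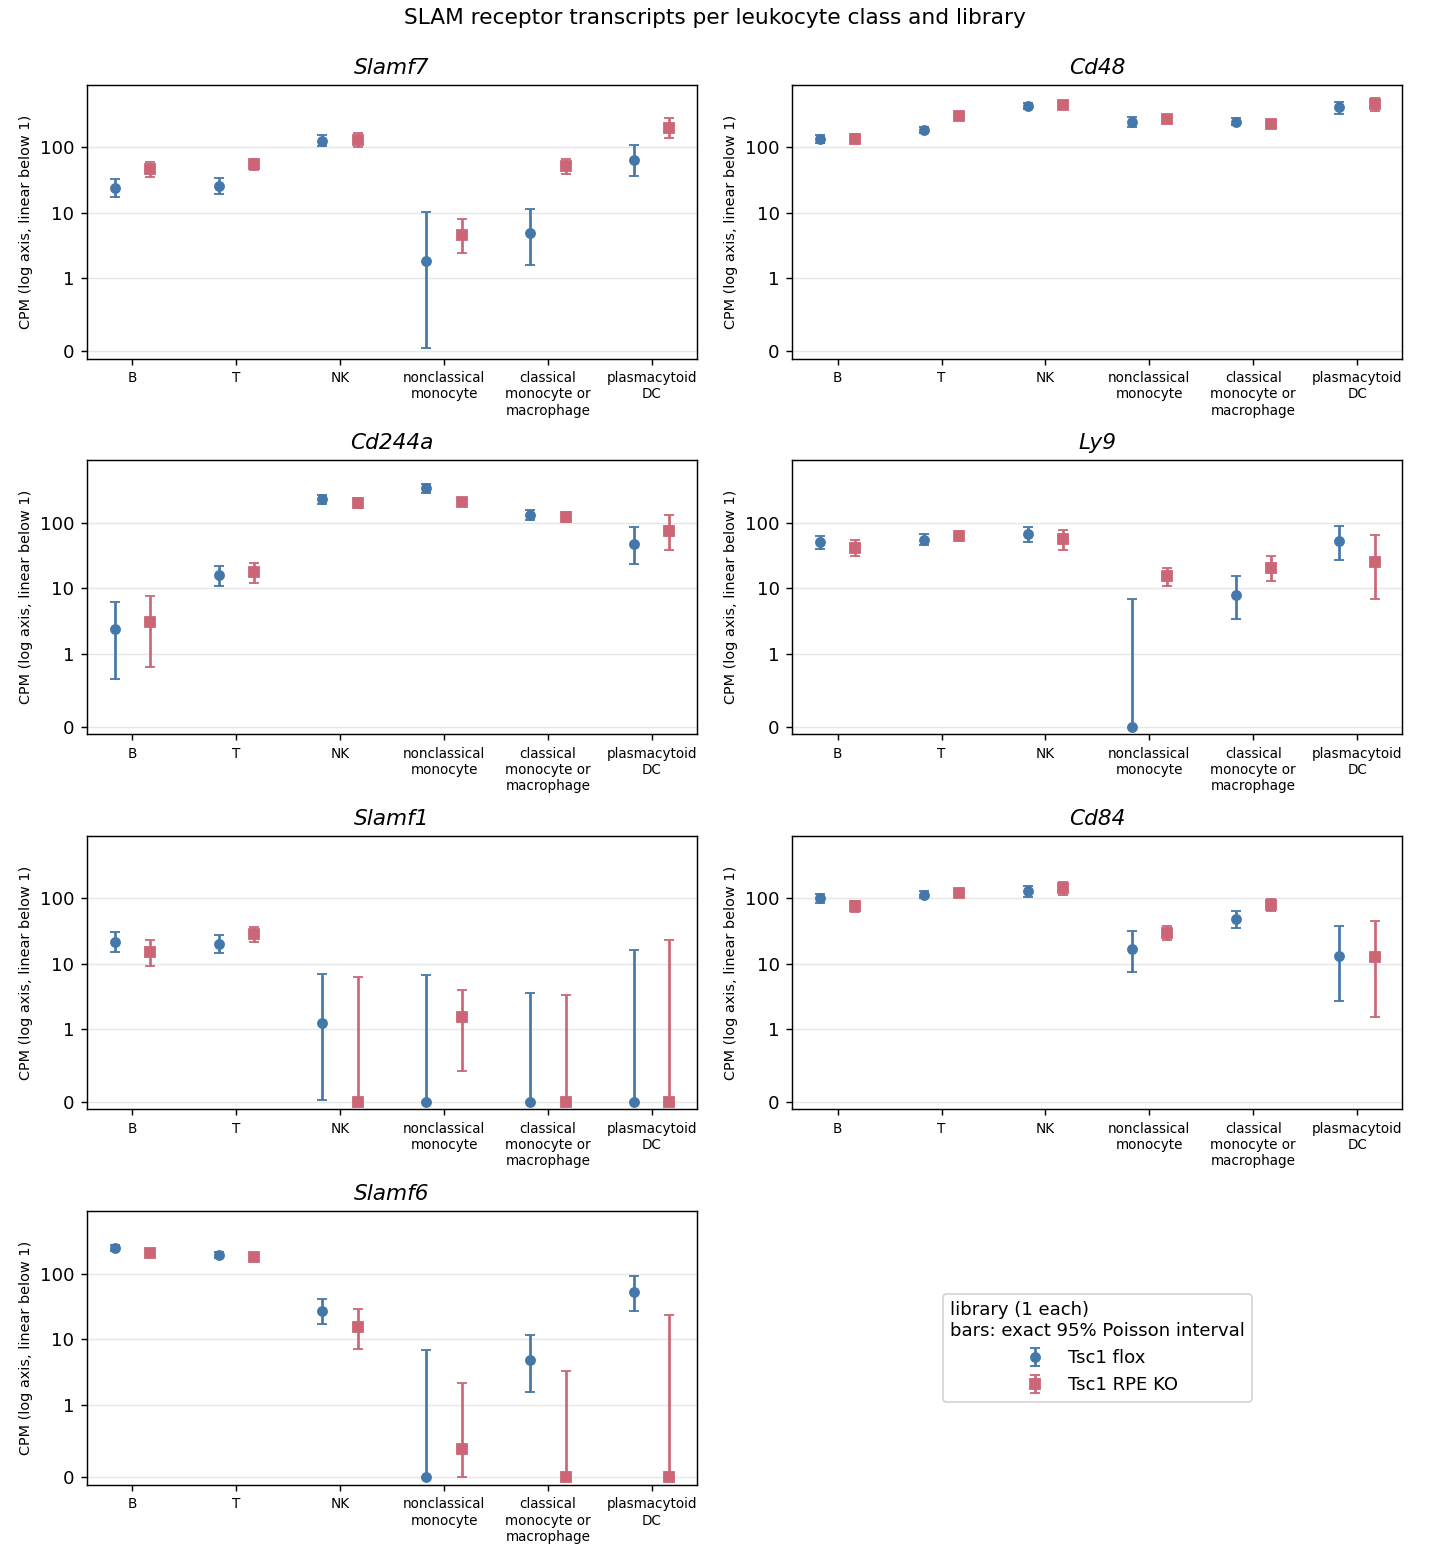
Level of each member (CPM, on a log axis that is linear below 1) in 6 leukocyte classes of the Tsc1 flox (circles) and Tsc1 RPE KO (squares) libraries, with exact 95% Poisson intervals. Slamf7 of the monocyte/macrophage-like class stands at 4.88 and 52.6 CPM, while Cd48 lies above 100 in every class and library.

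Levels are given as CPM, the UMIs of a gene per 1000000 UMIs of the class, and intervals, all at 95%, cover counting error only. A member counted as measured where both libraries together gave 50 or more of its UMIs in the class, and 1.5-fold was used to count differences. In B cell-like cells, 6 of 7 members were measured, 1 stood at least 1.5-fold higher in the knockout library and 0 at least 1.5-fold lower, where 2.66% and 4.05% of all 5749 measured genes did. In T cell-like cells, all 7 were measured, with 2 higher and 0 lower against 4.58% and 2.37% of 6632 genes. In NK cell-like cells, 5 were measured and 0 passed in either direction, against 3.62% and 5.32% of 3925 genes. In nonclassical monocyte-like cells, 3 were measured, 1 higher and 1 lower, against 10.7% and 6.64% of 6051 genes. That class held 541623 flox and 2563937 knockout UMIs, so members and other genes reached 50 UMIs more easily through the knockout library. The higher member there, Cd84, had 9 and 76 UMIs. In monocyte/macrophage-like cells, 4 were measured, 2 higher and 0 lower, against 5.62% and 4.39% of 4893 genes. Since the choice of the group used these contrasts, nothing is read from the counts. The median log2 ratio of the measured members was -0.28 in B cell-like, 0.18 in T cell-like, 0.04 in NK cell-like, 0.14 in nonclassical monocyte-like and 0.31 in monocyte/macrophage-like cells, beside medians of all genes of -0.02, 0.04, -0.02, 0.03 and 0.00.

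**Figure D2:**
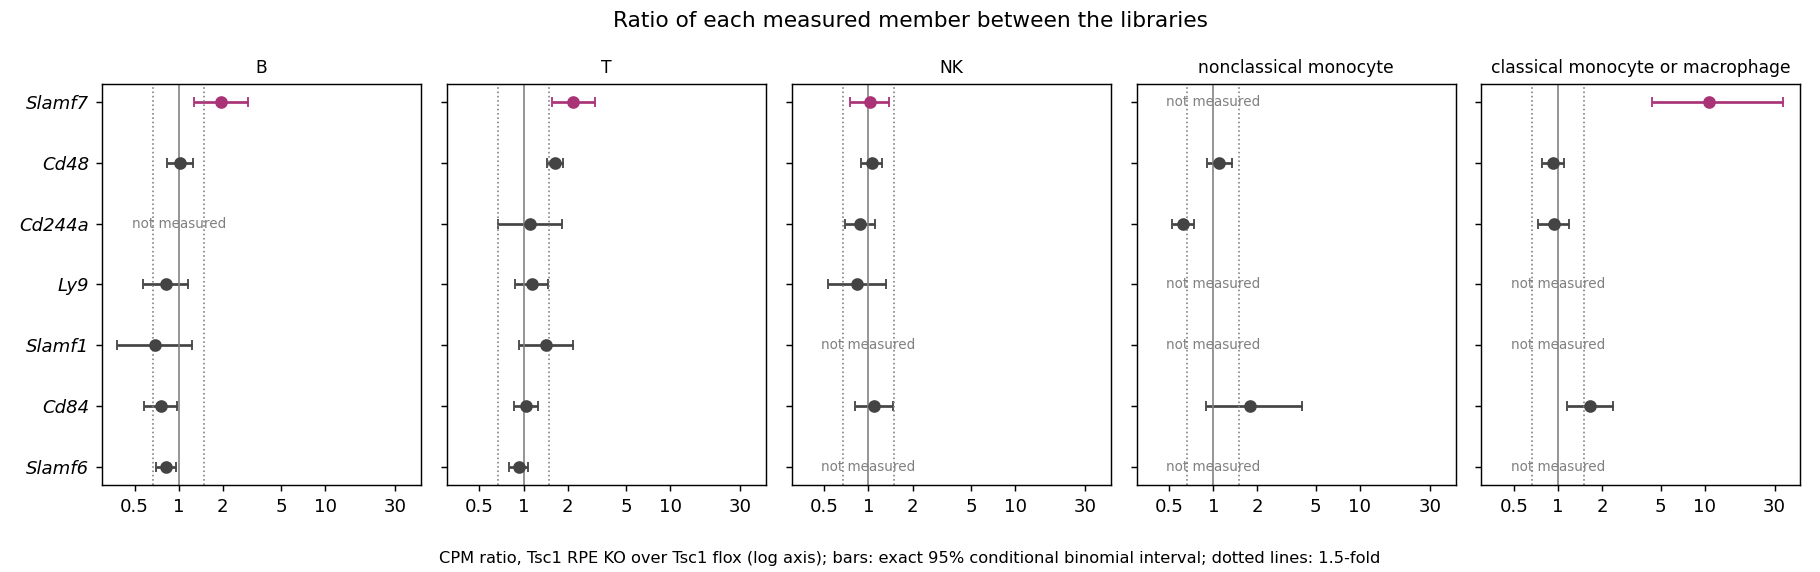
Ratio of CPM between the Tsc1 RPE KO and Tsc1 flox libraries for each measured member in 5 leukocyte classes (log axis), with exact 95% conditional binomial intervals and dotted lines at 1.5-fold. Slamf7 is the member with the highest ratio in B cell-like (1.94), T cell-like (2.18) and monocyte/macrophage-like (10.8) cells and lies at 1.03 in NK cell-like cells.

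Slamf7, a receptor that binds itself on the facing cell, ranked differently over the classes of the 2 libraries. In the flox library its level was 127 CPM in NK cell-like cells (interval 104 to 155) and 65.1 CPM in plasmacytoid dendritic cell-like cells (36.4 to 107). It was 25.6 CPM in T cell-like cells (19.1 to 33.6) and 24.2 CPM in B cell-like cells (17.3 to 33.0). Monocyte/macrophage-like cells had 4.88 CPM (1.59 to 11.4) and nonclassical monocyte-like cells 1.85 CPM, from a single UMI. In the knockout library the levels were 201 CPM in plasmacytoid dendritic cell-like (137 to 283) and 131 CPM in NK cell-like cells (103 to 163). T cell-like cells followed at 55.8 CPM (46.1 to 67.0), monocyte/macrophage-like cells at 52.6 CPM (40.0 to 67.8) and B cell-like cells at 46.9 CPM (35.9 to 60.1). The intervals of the NK and plasmacytoid dendritic cell-like classes overlapped in both libraries, and so did those of the T and B cell-like classes. That of the monocyte/macrophage-like class overlapped those of the T and B cell-like classes in the knockout library alone. Mast cell-like cells had 0 UMIs in 13 and 12 cells, which allows shares of up to 23.1% and 25%.

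The widest ratio of Slamf7 was in monocyte/macrophage-like cells. It had 5 UMIs in 4 of 104 flox cells and 59 UMIs in 29 of 116 knockout cells, so that 3.85% and 25% of the cells held a UMI. The ratio was 10.8 (4.36 to 34.4), at rank 7 from the top among the 4893 measured genes of the class. Slamf7 was selected on its higher level in this class among others, so nothing is read from the rank. Its 59 knockout UMIs alone were enough for it to count as measured, while its 5 flox UMIs alone were not. No flox cell held more than 2 UMIs, while 7 knockout cells held 3 or more and the highest held 6. With cells thinned to 1000 UMIs apiece, 1 of 104 and 7 of 116 cells still held one (0.962% and 6.03%). The class was a single cluster, led by F13a1, Fn1 and Wfdc17, with depths of 9743 and 9858 median UMIs. With a minimum of 500 UMIs per cell the class also took in most plasmacytoid dendritic cell-like cells and the ratio was 4.16. At a clustering resolution of 2 it was 16.3, from 2 and 22 UMIs. The class then held only 62 and 42 cells, and 52 flox and 105 knockout cells lay in unnamed clusters.

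Nearly all cells of that class carried monocyte genes, but every cell also held 2 or more markers of another leukocyte class. Those with a UMI of the classical monocyte genes Ly6c2, Chil3 or Ccr2 numbered 101 and 110 and held 4 and 58 Slamf7 UMIs, a ratio of 13.4 (4.94 to 50.7). Dendritic cell marker UMIs split the counts unevenly: the 75 flox and 77 knockout cells with at least 1 such UMI held 2 and 44 Slamf7 UMIs (ratio 21.4, 5.57 to 182), and the 29 and 39 cells without one held 3 and 15 (ratio 3.91, 1.11 to 21.1). These intervals overlap. Cells without a UMI of the complement genes C1qa, C1qb or C1qc, which mark tissue macrophages, held 5 and 51 UMIs (ratio 9.87, 3.97 to 31.7). The 4 flox and 11 knockout cells with such a UMI held 0 and 8. Some other markers also stood higher. The summed level of the 13 nonclassical monocyte markers in this class was 2293 CPM in flox and 3221 CPM in knockout cells, with all 13 detected in both, against 3347 and 3224 CPM for the 16 markers of its own name. Plasma cell markers summed to 0 and 8.91 CPM (0 and 2 of 8 detected), NK cell markers to 33.2 and 33.0 CPM, plasmacytoid dendritic cell markers to 122 and 133 CPM and dendritic cell markers to 167 and 157 CPM. The part of these markers in the ratio was not tested. In the nonclassical monocyte-like class Slamf7 had 1 and 12 UMIs (1.85 and 4.68 CPM). Its shares of cells with a UMI, 1.14% and 1.82%, were close to the 1.14% of knockout rod-like cells and are read as background. Of the knockout cells with a UMI, 6 held 1, 1 held 2 and 1 held 4, and the source of the higher counts was not tested.

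In T cell-like cells Slamf7 had 52 UMIs in 29 of 340 flox cells and 115 UMIs in 58 of 374 knockout cells. The levels of 25.6 and 55.8 CPM gave a ratio of 2.18 (1.56 to 3.08), and 6 flox and 19 knockout cells held 3 or more UMIs. After thinning, 2.06% and 3.48% of cells held a UMI. All 167 UMIs lay in cells that held at least 2 genes of a list of 10 effector lymphocyte genes (Nkg7, Ccl5, Gzmk, Cxcr6, Klrg1, Klrd1, Id2, Cxcr3, Il18rap and Zeb2). Such cells were 55.3% of flox and 54.0% of knockout T cell-like cells, and among them the ratio was 2.22 (1.58 to 3.14).

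The T cell-like class was made of 4 clusters, and Slamf7 was confined to the 2 with effector or cycling genes apart from 1 UMI. Cluster 10, led by Cxcr6 and Gzmk, had 45 and 96 UMIs (127 and 200 CPM, ratio 1.58, 1.09 to 2.30). Cluster 12, led by cell-cycle genes and the gamma-delta gene Trdc, had 7 and 18. Cluster 4, with Cd4 and Lef1, had 0 and 0, and cluster 7, with Cd8b1 and Lef1, had 0 and 1. Cluster 10 made up 18.8% of flox and 25.9% of knockout T cell-like cells. With the clusters weighted as in the flox library the ratio of the class was 1.67. The effector list summed to 4909 and 7672 CPM in T cell-like cells, with 5 of 10 genes at least 1.5-fold higher and 0 lower, against 4.58% and 2.37% of all measured genes of the class. Zeb2 was at 2.33 and Ccl5 at 1.68, but Cxcr6 at 0.743. The 14 NK cell markers summed to 1044 and 2138 CPM, with 13 and 14 detected. They summed to 5371 and 5634.5 CPM in cluster 10. In cluster 12 they summed to 423 and 5015 CPM, at a median of 1 marker UMI per cell in both libraries. Their part in the ratio of Slamf7, and in the cluster 12 values of other members below, was not tested.

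**Figure D3:**
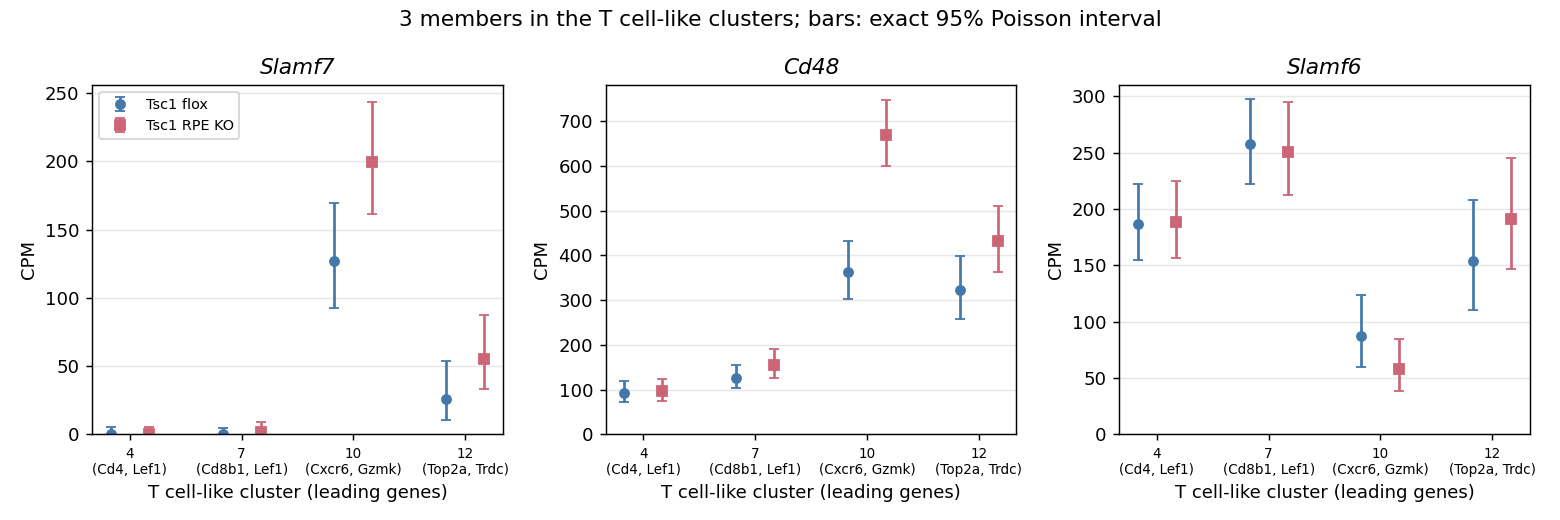
Levels of Slamf7, Cd48 and Slamf6 (CPM, linear axes) in the 4 T cell-like clusters of each library, with exact 95% Poisson intervals. Slamf7 is at or near 0 in clusters 4 and 7, and the widest gap is that of Cd48 in cluster 10, from 363 to 670 CPM.

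In B cell-like cells Slamf7 had 40 UMIs in 33 of 412 flox cells and 62 UMIs in 43 of 320 knockout cells. The levels were 24.2 and 46.9 CPM, a ratio of 1.94 (1.28 to 2.96), and 8.01% and 13.4% of the cells held a UMI. After thinning to 1000 UMIs per cell 11 and 10 UMIs were left, in 2.67% and 3.13% of cells, and the ratio was 1.17. The class was made of 2 clusters. Cluster 0, led by Ighd and Igkc, had 16 and 43 UMIs (ratio 3.08, 1.70 to 5.87). Cluster 8, led by Vpreb3 and Iglc1, had 24 and 19 UMIs (ratio 1.22, 0.631 to 2.32). The intervals of these ratios overlap. In the flox library the level of Slamf7 was 14.2 CPM in cluster 0 and 45.6 CPM in cluster 8, and in the knockout library 43.8 and 55.5 CPM. Plasma cell markers summed to 29.7 and 99.8 CPM in the class, with 6 of 8 detected in both libraries and Tnfrsf17 and Prg2 at 0. They summed to 29.3 and 127 CPM in cluster 0 and to 30.4 and 20.5 CPM in cluster 8, and their part in the ratio of Slamf7 within cluster 0 was not tested. Without cells that held 2 or more plasma, T or NK cell markers, 40 and 54 UMIs were left and the ratio was 1.76. A list of 7 genes of innate-like or memory B cells summed to 198 and 175 CPM, with 2 measured and 0 past 1.5-fold.

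NK cell-like cells, where Slamf7 was high in both libraries, showed no such gap. It had 103 UMIs in 65 of 170 flox cells and 77 UMIs in 48 of 121 knockout cells, or 38.2% and 39.7% of cells. The ratio of 1.03 had an interval of 0.754 to 1.39, so a difference of 1.5-fold in either direction lies outside the counting error. Without cells that held 2 or more markers of another class the ratio was 1.68, from 15 and 16 UMIs. In the few plasmacytoid dendritic cell-like cells Slamf7 had 15 UMIs in 9 of 17 flox cells and 32 UMIs in 13 of 16 knockout cells. The ratio there was 3.09 (1.62 to 6.13) at median depths of 13490 and 10353.5 UMIs.

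**Figure D4:**
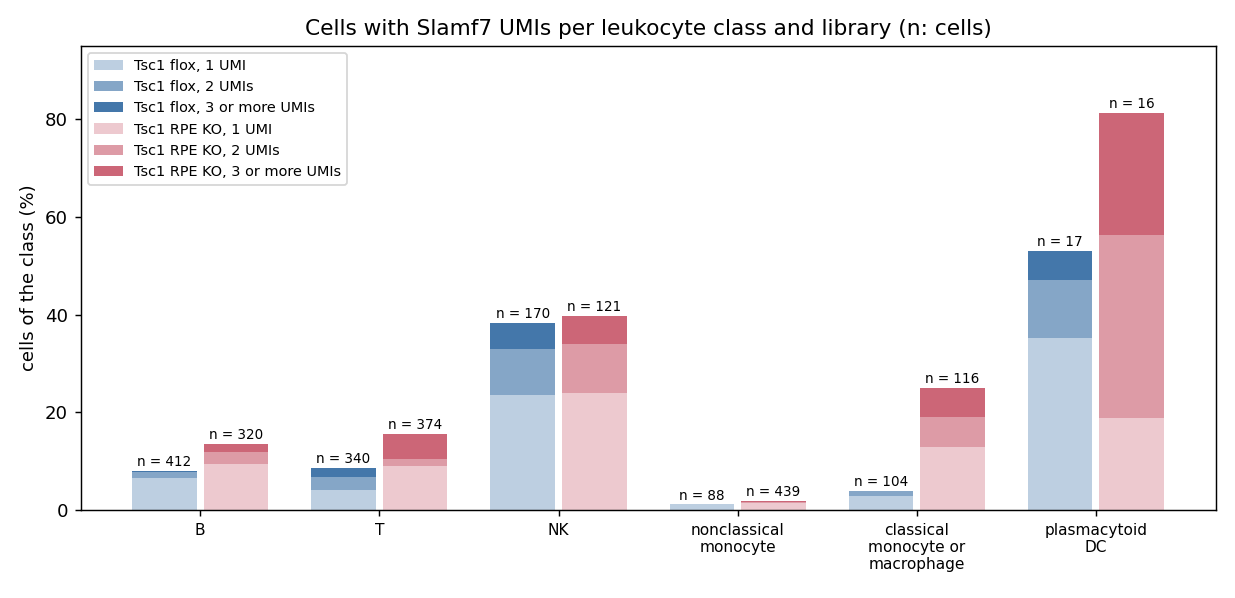
Share of cells (%, from 0) with 1, 2 or at least 3 Slamf7 UMIs in 6 leukocyte classes of the Tsc1 flox (left bar) and Tsc1 RPE KO (right bar) libraries, with the number of cells above each bar. The bars are near equal in NK cell-like cells (38.2% and 39.7%) and stand at 3.85% and 25% in monocyte/macrophage-like cells.

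Cd48, the ligand of Cd244a, was seen in every leukocyte class. Its level in flox and knockout cells was 426 and 448 CPM in NK cell-like, 408 and 458 CPM in plasmacytoid dendritic cell-like, 247 and 272 CPM in nonclassical monocyte-like and 134 and 137 CPM in B cell-like cells. In monocyte/macrophage-like cells, where Slamf7 differed most, Cd48 stood at 247 and 228 CPM (ratio 0.923, 0.773 to 1.10). Its ratios in the B cell-like, NK cell-like and nonclassical monocyte-like classes were 1.02, 1.05 and 1.10.

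T cell-like cells were the exception for Cd48. It had 371 UMIs in 183 of 340 flox cells and 619 UMIs in 237 of 374 knockout cells. The levels of 183 and 300 CPM gave a ratio of 1.64 (1.44 to 1.87), and the share of cells with a UMI was 13.5% and 23.3% after thinning. By cluster, the ratio was 1.04 in cluster 4, 1.23 in cluster 7, 1.84 (1.5 to 2.28) in cluster 10 and 1.34 (1.02 to 1.77) in cluster 12. The gap was thus widest in the cluster in which Slamf7 was also high, and weighting the clusters as in the flox library brought the ratio of the class to 1.44, under 1.5-fold. Among T cell-like cells with fewer than 2 effector genes, which had no Slamf7 UMI, Cd48 had 86 and 125 UMIs and a ratio of 1.39 (1.05 to 1.85).

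Cd244a, the receptor for Cd48, which regulates killing by NK cells, was high in NK and myeloid cells and near 0 in B cell-like cells. In NK cell-like cells it had 185 and 118 UMIs (229 and 200 CPM, ratio 0.876, 0.689 to 1.11), and thinned to 1000 UMIs per cell 50 and 15 UMIs (ratio 0.421). In monocyte/macrophage-like cells it had 134 and 137 UMIs (131 and 122 CPM, ratio 0.933), and in T cell-like cells 32 and 36 (15.8 and 17.5 CPM), of which cluster 10 held 27 and 25. B cell-like cells had 4 UMIs in each library.

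In nonclassical monocyte-like cells Cd244a stood lower in the knockout library. It had 182 UMIs in 76 of 88 flox cells and 538 UMIs in 272 of 439 knockout cells, or 86.4% and 62.0% of cells. The levels of 336 and 210 CPM gave a ratio of 0.624 (0.527 to 0.743), and the thinned shares were 29.5% and 18.9%. The class was made of 2 clusters, and most of the flox cells were in cluster 5 (56 against 32) and most of the knockout cells in cluster 2 (265 against 174). Cd244a was lower in both, at 0.580 (0.442 to 0.772) in cluster 2 and 0.65 (0.519 to 0.818) in cluster 5. The 13 nonclassical monocyte markers summed to 9171 and 9404 CPM in the class.

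Ly9, a receptor that binds itself and is broad on T and B cells, overlaps Cd244a on the opposite strand, and whether the counting used strand is not given in the sources used here. In B cell-like cells Ly9 had 84 and 55 UMIs, with only 4 UMIs of Cd244a in each library. Its ratio was 0.818 (0.571 to 1.16) in B cell-like, 1.13 (0.873 to 1.47) in T cell-like and 0.839 (0.527 to 1.32) in NK cell-like cells, none past 1.5-fold. In cluster 10 it had 27 and 56 UMIs (ratio 1.53, 0.951 to 2.52). In nonclassical monocyte-like cells Ly9 had 0 UMIs in 88 flox cells, which allows a share of up to 3.41%, and 39 UMIs in 36 of 439 knockout cells (8.20%). Against a floor of 3 counts in the flox library the ratio was 2.75, with a lower limit of 2.13, but the UMIs were too few to count as measured. Against the same floor it was 1.18 in cluster 2 (0 and 29 UMIs) and 1.10 in cluster 5 (0 and 10 UMIs) of the class. T cell markers in that class summed to 3.69 and 47.2 CPM, with 2 and 14 of 16 detected. They summed to 11.3 and 4.80 CPM in cluster 2 and to 0 and 103 CPM in cluster 5. Their part in the Ly9 counts was not tested. Monocyte/macrophage-like cells had 8 and 23 UMIs of Ly9 (7.81 and 20.5 CPM), too few in all to count as measured.

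Slamf1, the self-binding receptor after which the family is named, was seen chiefly in B and T cell-like cells. It had 36 and 20 UMIs in B cell-like cells (ratio 0.694, 0.381 to 1.23) and 41 and 59 in T cell-like cells (ratio 1.42, 0.935 to 2.16). Both intervals include 1. NK cell-like cells had 1 and 0 UMIs, nonclassical monocyte-like cells 0 and 4, and monocyte/macrophage-like cells 0 and 0, which allows up to 2.88% and 2.59% of cells with a UMI. The T cell-like counts were spread over all 4 clusters, with 10 and 24 UMIs in cluster 12.

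Cd84, a self-binding receptor of B cells, T cells and myeloid cells, stood lower in one class of the knockout library and higher in others. In B cell-like cells it had 165 and 100 UMIs (99.8 and 75.6 CPM, ratio 0.757, 0.584 to 0.976). In monocyte/macrophage-like cells it had 49 UMIs in 31 of 104 flox cells and 88 UMIs in 51 of 116 knockout cells, a ratio of 1.64 (1.14 to 2.37), which was 7.17 from 2 and 16 UMIs after thinning. In nonclassical monocyte-like cells it had 9 and 76 UMIs and a ratio of 1.78 whose interval, 0.892 to 4.05, includes 1. The T cell-like and NK cell-like ratios were 1.04 and 1.10. In mast cell-like cells, a class known for this receptor, 9 of 13 flox and 6 of 12 knockout cells held a UMI.

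Slamf6, a self-binding receptor of T, B and NK cells, had no ratio past 1.5-fold in the single classes where it was measured. B cell-like cells had 406 UMIs in 232 of 412 flox cells and 268 UMIs in 168 of 320 knockout cells, at 246 and 203 CPM (ratio 0.824, 0.704 to 0.964). T cell-like cells had 387 and 364 UMIs, at 191 and 177 CPM (ratio 0.926, 0.80 to 1.07). Among the T cell-like clusters Slamf6 ran the other way from Slamf7, highest in cluster 7 (258 and 251 CPM) and lowest in cluster 10 (87.3 and 58.2 CPM). NK cell-like cells had 22 and 9 UMIs, and nonclassical monocyte-like cells 0 and 1. Over all leukocytes together the ratio of Slamf6 was 0.623. B cell-like cells were 27.0% of flox and 17.3% of knockout cells of all types, and nonclassical monocyte-like cells 5.77% and 23.7%. The part of these shares in the ratio over all leukocytes was not tested. The antisense gene Gm37065, which overlaps Slamf6, had 53 and 35 UMIs in all cells. In plasmacytoid dendritic cell-like cells Slamf6 had 12 UMIs in 3 of 17 flox cells and 0 in 16 knockout cells, and B cell markers in that class summed to 1141 and 301 CPM, with 14 and 4 of 14 detected. Their part was not tested.

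Of the genes through which the receptors signal, 0 stood at least 1.5-fold higher in any of the 5 main classes and 1 lower in 1 class. Of 3 SAP adaptors, Sh2d1a had a ratio of 1.12 in T cell-like and 0.901 in NK cell-like cells, and Sh2d1b1, the adaptor known for Slamf7 in NK cells, had 0.915 in NK cell-like and 0.863 in nonclassical monocyte-like cells. Sh2d1b2 had 1 UMI at most in each class and library. Of 15 kinases, phosphatases and effectors, 11 to 14 were measured in each class. The lower gene was Ptpn11, which encodes a phosphatase, at 0.654 (0.364 to 1.14) in NK cell-like cells. It was 1 of 14 measured genes of its list there, in a class where 5.32% of all 3925 genes were lower by that fold, and its interval includes 1. The kinase genes Fyn and Lck had ratios of 0.998 and 1.02 in T cell-like cells. Cd2, the other partner of Cd48, had 559 and 646 UMIs in T cell-like cells and a ratio of 1.14 (1.01 to 1.28).

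The family members Slamf8 and Slamf9 lie outside the group. Slamf8, which starts 938 kb from Slamf7 and encodes a receptor of myeloid cells, had 16 and 59 UMIs in monocyte/macrophage-like cells (ratio 3.36, 1.91 to 6.27) and 4 and 51 in nonclassical monocyte-like cells (ratio 2.69, 0.990 to 10.3). Slamf9 was not measured in any of the 5 main classes, with 12 and 26 UMIs in nonclassical monocyte-like and 7 and 18 in monocyte/macrophage-like cells.

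Setting Slamf7 beside its neighbours, 128 genes of the list started within 2.5 Mb of its start. Apart from the members, 25 of them were measured in B cell-like cells, with 2 at least 1.5-fold higher and 2 lower (8% and 8%, against 2.66% and 4.05% of all measured genes of the class). T cell-like cells had 28, with 4 higher and 1 lower (14.3% and 3.57%, against 4.58% and 2.37%). NK cell-like cells had 20, with 3 and 3 (15% and 15%, against 3.62% and 5.32%). Nonclassical monocyte-like cells had 33, with 6 and 4 (18.2% and 12.1%, against 10.7% and 6.64%), and monocyte/macrophage-like cells 30, with 6 and 3 (20% and 10%, against 5.62% and 4.39%). These counts rest on 1 to 6 genes apiece, several of them Ifi200 genes. Arhgap30, 264 kb from Slamf7 and among its nearest measured neighbours outside the family, had ratios of 0.935 in monocyte/macrophage-like, 1.01 in T cell-like and 0.773 in B cell-like cells. Usf1, at 242 kb, had 0.893, 0.972 and 0.704 in the same classes, and B930036N10Rik, at 149 kb, had 1.11 in T cell-like cells. None of these 3 genes was at least 1.5-fold higher in those classes.

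The highest ratios of the window, apart from the members, were those of interferon-inducible Ifi200 genes about 2 Mb away, and genes of that group also stood lower. Slamf8, described above, followed with 3.36 in monocyte/macrophage-like and 2.69 in nonclassical monocyte-like cells. The Ifi200 genes resemble each other in sequence, so reads may be split between them, which was not tested. Ifi206, at 1838 kb, had 30 and 83 UMIs in B cell-like (ratio 3.46), 37 and 210 in T cell-like (5.59) and 2 and 57 in monocyte/macrophage-like cells (26.0, 6.88 to 220). Ifi213 had 5 and 77 UMIs in T cell-like cells, and Ifi205 had 1 and 64 in nonclassical monocyte-like cells. Ifi209 stood at least 1.5-fold higher in 3 of 5 classes, T cell-like (1.73), NK cell-like (1.79) and nonclassical monocyte-like cells (1.56). Lower in the knockout library were Ifi204 in B cell-like (0.50) and T cell-like cells (0.429), Ifi214 in B cell-like (0.606) and monocyte/macrophage-like cells (0.466), and Ifi202b in monocyte/macrophage-like (0.403) and nonclassical monocyte-like cells (0.580). Mndal, of the same group, was at 0.536 in monocyte/macrophage-like cells.

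Other genes were also among the 3 highest or lowest of a class. They were Usf1 (0.704) and the Ifi200 gene Ifi208 (1.65) in B cell-like cells, and Pigm (0.787) and Sdhc (0.837) in T cell-like cells. In NK cell-like cells they were Copa (0.605), Dcaf8 (0.639), Pea15a (0.663), Fcgr2b (1.64) and Ufc1 (1.64). In nonclassical monocyte-like cells they were Fcgr3 (0.493, the lowest of the class), Atf6 (0.610) and B4galt3 (1.99), and in monocyte/macrophage-like cells Sdhc (1.93). Of the 3 classes in which Slamf7 stood higher, each thus also held Ifi206 among its 3 highest neighbours. Ifi206 was measured in these 3 classes alone, so the NK cell-like and nonclassical monocyte-like classes could not be compared.

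**Figure D5:**
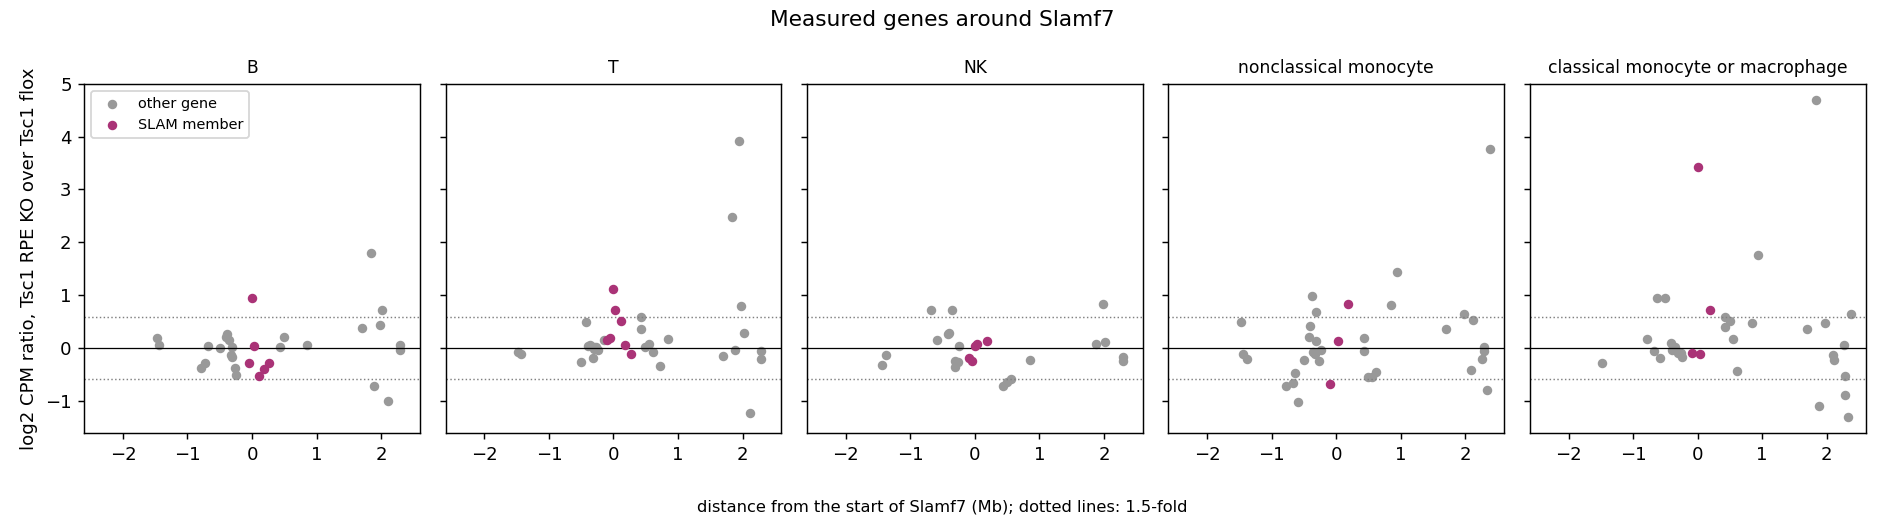
log2 CPM ratio (Tsc1 RPE KO over Tsc1 flox) of each measured gene against its distance from the start of Slamf7 (Mb) in 5 leukocyte classes, with SLAM members in purple, other genes in grey and dotted lines at 1.5-fold. Slamf7 lies at 0, other genes within 0.3 Mb lie below the upper dotted line, and the highest ratio of another gene, 26.0 for Ifi206 in monocyte/macrophage-like cells, lies 1838 kb away.

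Genes with a profile like that of each member were ranked by Pearson r of log2(CPM + 10) over 14 profiles, 7 leukocyte classes in each of the 2 libraries, among 9969 genes. Profiles of a library share its free RNA and depth, and r is given as a description. Nearest to Slamf7 were Rnf187 and Gpsm1 (both r = 0.92) and Tdp1 (0.91), and nearest to Cd48 were Rnaset2a (0.94), Slc25a24 (0.94) and Krcc1 (0.93). For Cd244a they were the integrin gene Itgb2 (0.95), Efhd2 (0.93) and the talin gene Tln1 (0.92). For Ly9 they were 0610010K14Rik (0.96), Atm (0.96) and Ssb (0.95), and for Cd84 Pld3 (0.91), 1810058I24Rik (0.90) and Stk26 (0.90). Slamf6 was nearest to Scml4 (0.96), Ephx1 (0.95) and Tmem108 (0.95), and Slamf1 to Gm42722 (0.99), Fam169b (0.98) and Dtx1 (0.98). No other member was among the 3 nearest genes of any member.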

How the data were processed

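Single-cell 3' libraries of RPE/choroid were measured in 2 samples, 1 for each genotype. The deposited matrices hold whole-number UMI counts per gene and barcode, not normalized, with no filter on barcodes, per the file headers and values. Cell Ranger 2.1.1 and mm10 are given per the submitters' processing notes, Cell Ranger 4 per the file headers, and which of them gave the counts is not given in the sources used here. Listed barcodes numbered 661479 (flox) and 728310 (knockout), with 10771118 and 12574364 UMIs.

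Barcodes with at least 10% of the 99th percentile of UMIs of the top 3000 barcodes (minimums 1487.4 and 1373.6) and 200 genes were kept as cells. Scrublet in scanpy 1.11.5 marked 8 and 19 doublets, which were removed. The 2000 most variable genes without the 7 members gave 30 principal components, 20 neighbours and 20 clusters (leidenalg 0.10.2, resolution 1), each named from fixed marker lists. Raw UMIs were summed per class and library. Intervals at 95% are exact Poisson (CPM), conditional binomial (ratios) and Clopper-Pearson (shares), and cover counting error only. Ratios against a count of 0 used a floor of 3 counts per library and class, and the limit on a share of 0 is 3 divided by the number of cells. Free RNA was taken from barcodes of 10 to 100 UMIs.

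The members, marker lists and gene lists were chosen with earlier results of these data known. Genes named are all members, the listed SLAM pathway genes, the 3 most alike genes of each member, and window genes that are among the 3 highest or lowest of a class or past 1.5-fold in 2 or more classes. Zeb2, Ccl5 and Cxcr6 as examples, Arhgap30, B930036N10Rik and Ncstn were chosen after their values were seen. Alternatives are given in the closing section.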

Additional observations from a re-analysis of the deposited data

Results flagged for a closer look

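A signal of 2 members appeared in barcodes that were not called as cells and that no comparison above uses. In barcodes of 10 to 100 UMIs, which hold mostly free RNA, Slamf7 had 14 UMIs among 1236358 in the flox library (11.3 CPM, 6.19 to 19.0) and 38 among 1348115 in the knockout library (28.2 CPM, 19.9 to 38.7). Cd48 stood at 145 CPM (124 to 168) and 214 CPM (190 to 241) in the same barcodes. The intervals of the libraries did not overlap for these members, and the ratios have no replicate. The other 5 members had overlapping intervals or stood lower in the knockout library, with Slamf6 at 80.9 and 43.0 CPM. Cd244a also stood higher there, at 39.6 CPM (29.3 to 52.4) in flox and 64.5 CPM (51.7 to 79.6) in knockout barcodes, and its intervals overlapped only narrowly. In uncalled barcodes of more than 100 UMIs the intervals of the libraries overlapped for Slamf7 and Cd48. Cd48 stood at 51.8 and 54.0 CPM, and Slamf7 had 1 and 4 UMIs (3.45 CPM, 0.0874 to 19.2, and 11.4 CPM, 3.10 to 29.1).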

How the results depend on the processing

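No paired analysis was possible because each genotype has 1 library. Each ratio was recomputed under 14 other settings where cells allowed, 12 planned and 2 chosen after seeing the data (clusters weighted as in the flox library, and cells with 2 or more markers of another lymphoid class left out). Over 32 ratios and 433 comparisons, 406 stayed within the counting interval, 27 left it and 0 reversed a difference of 1.5-fold. Some of these could not move. The B, T and NK cell-like classes were unchanged in cells and UMIs at resolutions 0.5 and 2. The same held with the members kept among the clustering genes. Weighting could not change a class of 1 cluster. The ratios of T cell-like cells with 2 or more effector genes repeat part of their class. The Slamf7 ratio ranged from 1.17 to 1.97 in B cell-like, 1.67 to 2.55 in T cell-like, 1.0 to 1.68 in NK cell-like and 4.16 to 16.3 in monocyte/macrophage-like cells. Thinned to 1000 UMIs per cell it was 1.17 in B cell-like cells, from 11 and 10 UMIs, and 0 members were then at least 1.5-fold higher. Without cells with 2 or more markers of another class it was 1.68 in NK cell-like cells, from 15 and 16 UMIs, and 1 member was then higher. At a minimum of 500 UMIs it was 4.16 in monocyte/macrophage-like cells, a class that then also held 16 and 16 of the plasmacytoid dendritic cell-like cells. At resolution 2 it was 16.3 from 2 and 22 UMIs, in a class reduced to 62 and 42 cells. Weighted clusters left 1 member at least 1.5-fold higher in T cell-like cells, where Cd48 was at 1.44. In monocyte/macrophage-like cells 1 member was higher without cells with markers of another lymphoid class, and 1 with the members kept among the clustering genes. For the classical monocyte or macrophage-like class, the gate on marker UMIs kept 16 flox and 16 knockout cells. Removal of cells with 2 or more markers of another class left 0 and 0. With fewer than 20 cells in a library neither gave a value, so the ratio of this class could not be checked in these ways. Of the other members' ratios, 342 of 366 stayed within the interval, with the same limits on what could move. Thinning moved Cd84 in monocyte/macrophage-like cells to 7.17, from 2 and 16 UMIs, and Cd244a in NK cell-like cells to 0.421, from 50 and 15 UMIs; the cause was not tested. Of the 18 member ratios under 1.5-fold in the 5 main classes, the counting interval included 1 for 16 and left it out for 2 (Slamf6 and Cd84 in B cell-like cells).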
